A study of Homo sapiens with 20 samples.

Results

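In hypoxic HCT116 cells, HIF1A was called at 990 places near gene starts at which no other cell line of the study had a peak. HCT116 is a human colorectal carcinoma line, and it was compared with RKO, a colon carcinoma line, and with A549 and H460, which are lung carcinoma lines. All lines were kept for 24 h at 1% oxygen or in normoxia, with no other treatment given in the labels, and chromatin precipitated with a HIF1A antibody was sequenced (ChIP-seq). Each line and condition had 2 ChIP replicates that the authors merged before they called peaks, and each line had 1 input library of genomic DNA, so no value below has a replicate error. These 990 peaks were selected on their presence in the HCT116 hypoxia list. They overlapped no hypoxia peak of RKO, A549 or H460, also not through a chain of overlapping peaks, and their centres lay within 2500 bp of the start of a protein-coding or lncRNA gene. They are 990 of 3996 HCT116 hypoxia peaks and of 22452 hypoxia peaks in the 4 lines. HCT116-only peaks numbered 2757 in all, of which the other 1767 lay farther from a start, and 864 near-start peaks of HCT116 were shared with 1 or more lines.

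HIF1A is the oxygen-regulated subunit of the HIF1 transcription factor. In normal oxygen it is hydroxylated by prolyl hydroxylases, bound by the VHL protein and degraded, and in hypoxia it accumulates, pairs with ARNT and binds hypoxia response elements. The core of such an element is ACGTG or GCGTG, called the HRE core below. HIF1A is best known for activating genes of glycolysis, glucose and lactate transport, pH control and angiogenesis, many of which are bound close to the start.

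The merged HCT116 hypoxia library held 81.5 M tags and the merged normoxia library 69.2 M, and the libraries of the other lines held between 41.2 and 66.9 M. Peaks had to exceed the input by a fold of 7 for HCT116, 6 for RKO, 13 for A549 and 14 for H460, so absence from another line's list means absence at that line's threshold and depth, not absence of binding. A list of binding sites carries no RNA, so the identity of the lines could not be checked against marker genes. The part that differences in depth, threshold and immunoprecipitation play in which peaks were called in HCT116 alone was not tested.

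The 4 strongest HCT116-only peaks with an HRE core in the 200 bp around the centre, and the strongest without it, are printed first because they show what the strongest peaks of this class look like. Peaks that overlapped an annotated UTR were passed over. Each is the whole called peak in GRCh37, 5′ to 3′ on the strand of the nearest gene, with every HRE core on either strand in capitals.
LINC00511, chr17:70636733-70636881, minus strand: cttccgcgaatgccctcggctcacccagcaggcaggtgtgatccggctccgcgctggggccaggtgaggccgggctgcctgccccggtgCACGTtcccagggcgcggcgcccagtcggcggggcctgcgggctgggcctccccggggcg
ENSG00000279151, chr1:17027794-17027942, plus strand: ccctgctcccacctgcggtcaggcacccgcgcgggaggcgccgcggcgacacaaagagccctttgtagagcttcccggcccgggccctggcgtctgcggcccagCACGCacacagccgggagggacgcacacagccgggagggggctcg
CCDC85B, chr11:65658669-65658817, plus strand: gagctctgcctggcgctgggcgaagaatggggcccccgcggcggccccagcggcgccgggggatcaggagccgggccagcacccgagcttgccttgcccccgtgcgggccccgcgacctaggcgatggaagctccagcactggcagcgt
LINC00886, chr3:156534817-156534965, minus strand: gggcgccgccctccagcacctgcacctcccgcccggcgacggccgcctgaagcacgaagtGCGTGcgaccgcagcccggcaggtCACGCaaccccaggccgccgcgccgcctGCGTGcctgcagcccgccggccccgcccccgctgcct
UCA1, chr19:15939471-15939619, plus strand: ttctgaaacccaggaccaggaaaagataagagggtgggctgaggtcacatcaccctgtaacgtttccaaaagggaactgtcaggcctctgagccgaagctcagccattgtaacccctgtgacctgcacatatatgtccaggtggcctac
The LINC00511 peak held 1 core, printed as its reverse complement, and the LINC00886 peak held 3. In the CCDC85B sequence nothing is in capitals because the called peak ended within the core of that window, before its last base. The peaks with a core had a GC content between 75.2% and 80.5%, whereas that of UCA1 had 52.3%.

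HCT116-only peaks near starts were mostly weak peaks, and most of the strongest had a long noncoding RNA gene as the nearest one. Strength is given in normalised tags, the number of reads (tags) in the peak scaled to a library of 10 M. The 990 peaks held between 2.09 and 28.1 normalised tags, with a median of 3.07 and quartiles of 2.70 and 4.17. The median corresponds to 25 unscaled tags, whose exact Poisson 95% interval runs from 16.2 to 36.9 tags, and the weakest peak held 17 tags. The shared near-start peaks of HCT116 had a median of 6.01 normalised tags, which was 4.54 where 1 other line had the peak, 6.87 where 2 had it and 13 where all 4 lines had it. HCT116-only peaks far from starts had a median of 2.70. These counts belong to the measure that selected the peaks and are given as a description. Of the 990 peaks, 127 exceeded 5 normalised tags, 12 exceeded 10, and 38 stood among the 500 strongest of the HCT116 list.

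**Figure D1:**
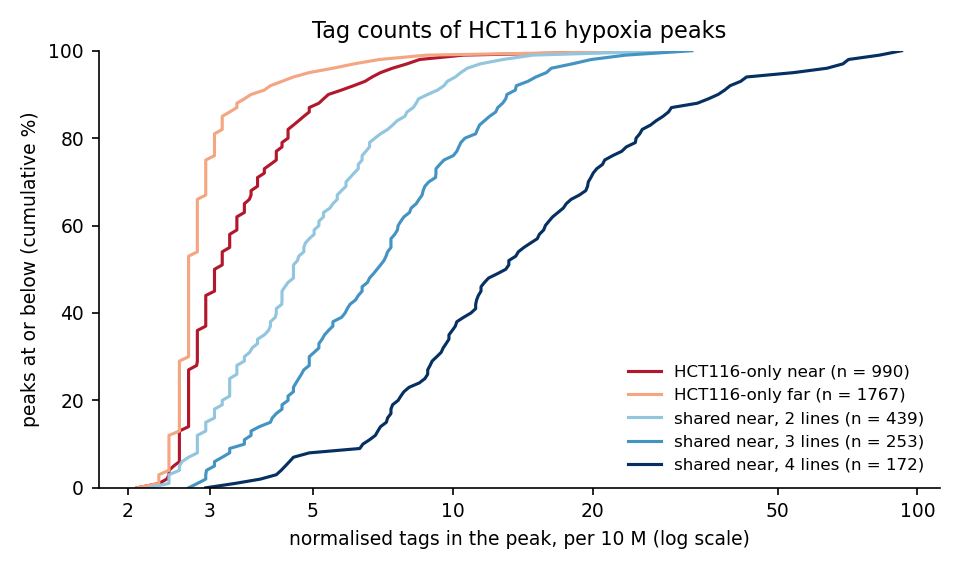
Cumulative share of HCT116 hypoxia peaks (vertical axis, percent) at or below a normalised tag count (horizontal axis, log scale), with 1 line for each class of peak. The HCT116-only near-start peaks, with a median of 3.07, lie between the HCT116-only far peaks (2.70) and the near-start peaks shared by 2 lines (4.54).

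The input library held few tags at these peaks. A value of 0.5 input tags, which the list uses where fewer than 1 tag was present, stood beside 280 of the 990 peaks (28.3%), and exactly 1 input tag beside 564 (57.0%). In the shared near-start peaks the same shares were 17.2% and 36.5%. The fold over input of the HCT116-only peaks, with a median of 11.3, thus rested mostly on at most 1 input tag. These shares are a description, since the required fold of 7 bounds the input tags that a weak called peak can have. Of the 990 peaks, 676 held 30 unscaled tags or fewer, and the shared peaks were stronger.

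LINC00511, a lncRNA gene, had the strongest peak, with 28.1 normalised tags and a 19.2-fold excess over input, 196 bp upstream of its start. It ranked 41 among all HCT116 hypoxia peaks. The unnamed lncRNA genes ENSG00000262413 and ENSG00000279151 followed with 20.0 and 19.9 normalised tags. The ENSG00000262413 peak is a borderline case of the selection, since an H460 peak ended 44 bp from it and all 3 other lines had a peak within 2500 bp of that start. UCA1, a lncRNA gene described as raised in several carcinomas, had 18.5 normalised tags in its noncoding exon, 529 bp downstream of its start.

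CCDC85B, which encodes a coiled-coil protein, had the strongest peak at a protein-coding gene, with 16.3 normalised tags in its coding exon. The lncRNA gene LINC00886 had the same 16.3, and KANSL1-AS1 had 15.3. SMYD3, a lysine methyltransferase gene, had 12.8 normalised tags at 4 bp from its start. DIRC3, a lncRNA gene, had 10.9 with 8 core matches in 200 bp, the most of the 20 strongest peaks. TTLL12, of the tubulin tyrosine ligase-like family, had 10.5, and a peak at the starts of SRSF1, a splicing regulator, and of the unnamed gene ENSG00000266086 had 10.3. The last 8 of the 20 strongest peaks held between 8.59 and 9.32 normalised tags. They lay at TRIM8-DT, PRRT3-AS1, TMEM250, DHX32 (a helicase-like protein), MIR378D2HG, SNX10 (a sorting nexin), ENSG00000276216 and HEMK1 (a methyltransferase). Of the 20 strongest peaks, 12 had a lncRNA gene as the nearest one, against 249 of all 990 (25.2%). Over all 990 the median was 3.07 normalised tags for peaks nearest a lncRNA gene and 3.07 for those nearest a protein-coding gene. The nearest start need not belong to the gene that holds the peak, since the TRIM8-DT and PRRT3-AS1 peaks were centred in a coding exon.

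Most of the peaks were centred within 500 bp of the start. The median distance of the centre from the start was 180.5 bp, 374 of 990 centres (37.8%, Wilson 95% interval 34.8% to 40.8%) lay within 100 bp and 722 (72.9%) within 500 bp. In all, 473 centres (47.8%) lay upstream of the start. By annotation, 298 centres were intergenic, 272 intronic, 234 in a UTR, 103 in a noncoding exon and 83 in a coding exon. The limit of 2500 bp was part of the selection, and shared near-start peaks obey it too.

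**Figure D2:**
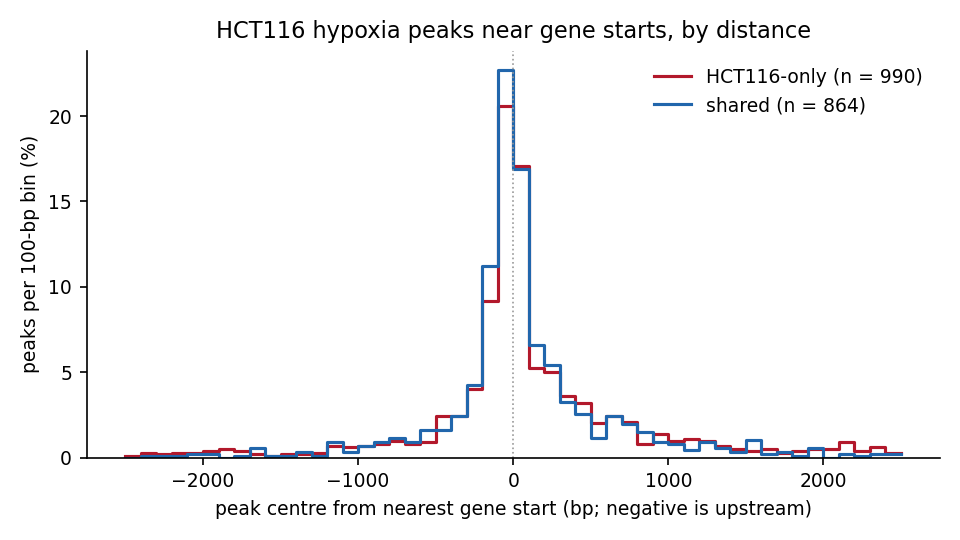
Share of peaks (vertical axis, percent) in 100-bp bins of the signed distance between the peak centre and the nearest gene start (horizontal axis, bp, negative upstream), for HCT116-only and shared HCT116 hypoxia peaks. Both classes pile up at the start, with 37.8% and 39.7% of centres within 100 bp.

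Within HCT116 the median distance of HCT116-only peaks was 29.5 bp longer than that of shared peaks, which was 151 bp. The corresponding medians were 525.5 and 140.5 bp for RKO, and the difference came to 292.5 bp for A549 and 87.5 bp for H460. Over the 4 lines the line-only peaks lay farther from the start by 199 ± 168 bp (SD, n = 4 lines, exact two-sided sign-flip permutation p = 0.125, Benjamini-Hochberg adjusted 0.15 over 6 tests). With 4 lines 0.125 is the smallest p this test can give, so no comparison over lines could pass 0.05. The HCT116 value turned negative under 3 alternatives. It was -3.0 bp where a peak of another line within 1000 bp counted as shared, -3.0 bp with a limit of 1000 bp and -19.5 bp in peaks of at least 6-fold over the local region.

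A second start often lay close by. Of the 990 peaks, 38.5% had 2 or more gene starts within 2500 bp, and 175 (17.7%) lay at a divergent pair of starts at most 1000 bp apart. In the shared near-start peaks 165 of 864 (19.1%) lay at such a pair.

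The HRE core was found in most HCT116-only peaks, but in fewer than among shared ones. Of the 990 peaks, 710 (71.7%, Wilson interval 68.8% to 74.4%) had ACGTG or GCGTG on either strand in the 200 bp at the centre, against 493 of 1980 flanking windows (24.9%) of the same size, centred 2000 bp away on each side. The difference was 46.8 percentage points (Newcombe 95% interval 43.3 to 50.1). It was 29.8 for RKO-only, 38.1 for A549-only and 55.5 for H460-only peaks, with a mean of 42.6 ± 11.1 (SD, n = 4 lines, exact sign-flip permutation p = 0.125, adjusted 0.15). A control core of the same base composition and CpG, ACGAG or GCGAG, was also more frequent at the centre than beside it, with 60.7% against 19.3%, a difference of 41.4 points (37.8 to 44.8; 26.5 with a window of 100 bp) in HCT116 and of 31.0 ± 9.1 over the 4 lines (SD, n = 4, exact sign-flip permutation p = 0.125, adjusted 0.15). Gene starts are rich in CpG, and in 200 bp around all 38878 gene starts the HRE core was present in 36.6% and the control core in 39.2%.

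The position of the matches separated the 2 cores. In 40-bp bins, 29.1% and 29.4% of HCT116-only peaks had an HRE core in the bins on either side of the centre, and 13.2% and 12.4% in the bins 180 bp away. The control core had 17.5% and 18.2% at the centre and 16.8% and 16.5% at 180 bp. Of the 710 peaks with an HRE core, 53.2% had one within 25 bp of the centre, compared with 548 of 790 (69.4%) in shared near-start peaks.

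**Figure D3:**
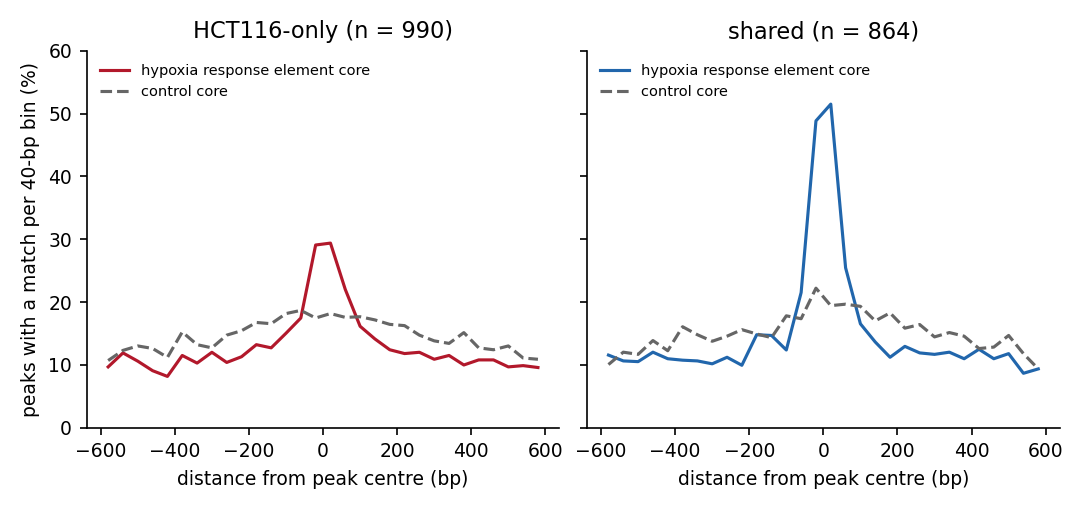
Share of peaks (vertical axis, percent) with an HRE core or the control core in 40-bp bins around the peak centre (horizontal axis, bp), for HCT116-only peaks and for shared HCT116 peaks near gene starts. The HRE core rises to 29.4% at the centre of HCT116-only peaks, while the control core stays at 18.2% there.

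Fewer HCT116-only than shared peaks had the core. Among shared near-start peaks of HCT116, 790 of 864 (91.4%) had it, and the difference, HCT116-only minus shared, was -19.7 points (Newcombe interval -23.1 to -16.3). In peaks of at least 6-fold over the local region it was -7.79 points (-12.8 to -3.64). The share was 87.5% where 2 lines had the peak, 93.7% where 3 had it and 98.3% where all 4 had it. Line-only peaks had the core less often in every line, with a difference of -34.9 points for RKO, -29.0 for A549 and -9.64 for H460. The mean difference was -23.3 ± 11.1 points (SD, n = 4 lines, exact sign-flip permutation p = 0.125, adjusted 0.15). The form of the core differed too. ACGTG was present in 37.4% of HCT116-only and 69.8% of shared peaks, and GCGTG in 52.8% and 58.4%. The extended form TACGTG was present in 7.58% and 23.5%, and in 44.2% of peaks of all 4 lines.

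The HRE core followed the strength of the peak. With the HCT116-only peaks ranked by tags and split into 4 parts of equal size, 55.2% of the weakest part had it (49.0% to 61.3%), then 66.4%, 78.5%, and 86.7% of the strongest (81.9% to 90.4%). The control core stood at 58.1%, 62.3%, 61.1% and 61.3%, and median GC rose from 68.5% to 71.5%. Set against shared peaks of like strength, HCT116-only peaks of 2 to 3 normalised tags differed in the share with the HRE core by -22.8 points (Newcombe interval -30.9 to -12.2, n = 444 and 81). At 3 to 4 tags the difference was -6.13 points (-13.9 to 2.84), at 4 to 6 tags -4.71 (-11.4 to 1.65) and at 6 to 10 tags -4.36 (-14.0 to 2.30). For ACGTG alone the difference was -18.4 points (-28.6 to -7.73) at 3 to 4 tags and -13.3 points (-22.6 to -3.68) at 4 to 6 tags. It was -24.5 points (-35.8 to -13.0) at 2 to 3 tags, -7.72 (-20.4 to 3.91) at 6 to 10 and -45.7 (-68.4 to -18.8) above 10. For GCGTG it was -12.8 points (-23.9 to -0.93) at 2 to 3 tags and lay between -1.77 and 6.45 in the other ranges, with intervals that include 0. Above 10 tags only 12 HCT116-only peaks were left, of which 9 had the core, against 197 of 198 shared peaks (99.5%), a difference of -24.5 points (-52.7 to -8.23). The control core was lower in these 12 peaks too, with 4 of 12 against 138 of 198, a difference of -36.4 points (-56.8 to -7.95). In the other ranges the control core differed by between -4.11 and 3.46 points, with intervals that include 0.

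**Figure D4:**
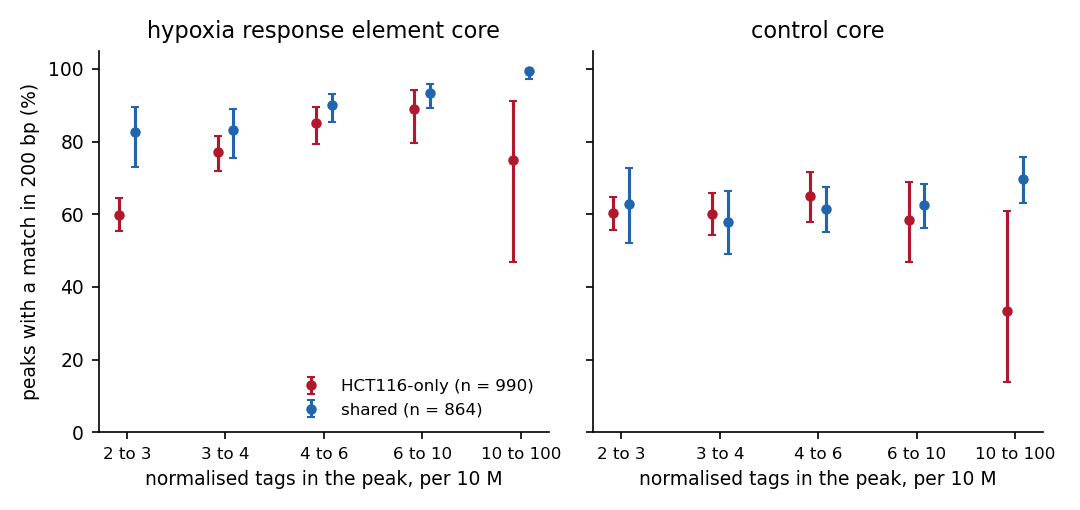
Share of HCT116 near-start peaks (vertical axis, percent) with the HRE core (left) or the control core (right) in 5 ranges of normalised tags (horizontal axis), for HCT116-only and shared peaks, with Wilson 95% intervals. The HRE core rises from 59.9% to 88.9% in HCT116-only peaks between 2 and 10 tags, and the control core stays between 58.3% and 65.0%.

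Near-start peaks had the core more often than HCT116-only peaks far from starts, where 762 of 1767 (43.1%) had it. The difference was 28.6 points for HCT116 (24.9 to 32.1; 13.3 in peaks of at least 6-fold over the local region), 39.6 for RKO, 27.5 for A549 and 19.6 for H460, and had a mean of 28.8 ± 8.2 (SD, n = 4 lines, exact sign-flip permutation p = 0.125, adjusted 0.15). The control core was also more frequent near starts, with 60.7% of HCT116-only peaks against 25.2% far from starts. Median GC was 70.0% near starts and 55.5% far from them, and its part in the difference was not tested. Near starts, HCT116-only peaks differed from shared ones by 0.5 points in median GC, against -9.0 for RKO, -7.0 for A549 and -2.0 for H460 (mean -4.4 ± 4.4, SD, n = 4 lines, exact sign-flip permutation p = 0.25). Whether HCT116 differs from the other lines in this was not tested. The HCT116 value changed sign, to -0.5 with a fold over input of at least 14 and to -1.0 with every transcript start.

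Promoter motifs of other factors were also counted in these windows on both strands. GGGCGG, the GC box bound by SP factors, was present in 60.9% of HCT116-only peaks, in 66.0% of shared ones and in 33.0% of all gene starts. CCGGAA, an ETS core, was present in 20.3%, 20.5% and 11.8%. CACGTG, the E-box that contains ACGTG on both strands and thus counts as the HRE core too, was present in 10.9%, 14.6% and 4.89%. CCAAT was less frequent at the centre of HCT116-only peaks (12.5%) than at gene starts (25.5%), as was TATAAA (2.02% against 8.57%). The sets differ in composition, with a median GC of 70% in HCT116-only peaks and 57% at all gene starts. Of the 38878 gene starts, 18702 were lncRNA starts (median GC 50%), while 25.2% of the HCT116-only peaks had a lncRNA start nearest. The part that these differences play in the motif shares was not tested. TGANTCA, where N is any base, the AP-1 site, was present in 3.74% near starts and in 10.6% of HCT116-only peaks far from starts. Among the 280 HCT116-only peaks without an HRE core, 156 (55.7%) had a GC box and 47 (16.8%) the ETS core, against 63.0% and 21.7% of the 710 with it.

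The gene lists below were chosen with earlier results of these data known. A gene was counted where an HCT116-only peak lay within 2500 bp of its start, which held for 1387 of 38820 symbols (3.57%) and for 967 of 20149 protein-coding symbols (4.80%). Over those 1387 symbols the median of the strongest peak was 3.19 normalised tags. For the genes discussed next, 25 bases around the HRE core closest to the peak centre are shown, read on the strand that carries ACGTG or GCGTG, with the core in capitals.
AXIN2, chr17:63557836-63557860, minus strand: cgggagcggaGCGTGcggcgggggc
ELF3, chr1:201977417-201977441, plus strand: ggcagggagcACGTGagcagccctg
RNF43, chr17:56494952-56494976, minus strand: caggtagagaGCGTGattgcagtcc
CDH1, chr16:68771170-68771194, minus strand: gagagggggtGCGTGgctgcagcca
SLC16A3, chr17:80174809-80174833, minus strand: acagagcaggGCGTGccacaggcac
PKM, chr15:72522443-72522467, plus strand: gcgagatggaGCGTGgtccctggcg
PFKP, chr10:3109750-3109774, plus strand: gcgcacccggACGTGcggctcccct
SRSF1, chr17:56084569-56084593, minus strand: gccgcgggagACGTGgtgccgctgc
HNRNPU, chr1:245027855-245027879, minus strand: cgcctatattACGTGcgcggcgccg
Of 60 classical HIF1A targets, 3 had an HCT116-only peak (5.00%, Wilson interval 1.71% to 13.7%), whereas 36 had a shared HCT116 peak, which 3.23% of all symbols had. The shares of all symbols with an RKO-only, A549-only or H460-only peak, for the counts given below, were 3.79%, 3.12% and 3.65%. Like the 3.23%, these shares include lncRNA symbols and were not computed for protein-coding symbols alone. SLC16A3, the lactate exporter MCT4, had 4.42 normalised tags at -1014 bp from its start. PKM, pyruvate kinase, had 4.05 at 1708 bp downstream in an intron, beside a shared HCT116 peak at the same start. PFKP, the platelet form of phosphofructokinase, had 3.93 at 1209 bp downstream. All 3 peaks had an HRE core, in the form GCGTG at SLC16A3 and PKM and ACGTG at PFKP, as printed above.

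Of 51 genes of colon epithelium and the Wnt pathway, 6 had an HCT116-only peak (11.8%, 5.51% to 23.4%), and the median was 3.99 normalised tags. RKO-only peaks stood at 4 of the 51, and A549-only and H460-only peaks at 3 each, so HCT116 was not alone in having such genes. AXIN2, a feedback inhibitor and target of Wnt signalling, had 4.66 normalised tags 86 bp upstream of its start. Its 31.9-fold excess over input rests on the value that the list uses where fewer than 1 input tag was present. ELF3, an epithelial ETS factor, had 4.42 in its UTR, and ESRP2, an epithelial splicing regulator, had 4.42 at 2062 bp downstream of its start, where HCT116 also had a shared peak. RNF43, a ubiquitin ligase that removes Wnt receptors, had 3.56 at 9 bp from its start, and CDH1, which encodes E-cadherin, had 3.19 at 28 bp. LRP6, a Wnt co-receptor, had 2.82. All 6 had an HRE core within 200 bp. Of 24 lung epithelium genes 1 had an HCT116-only peak, MUC1 with 3.07, while A549-only and H460-only peaks stood at 3 each.

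Of 78 splicing factor genes, 9 had an HCT116-only peak (11.5%, 6.19% to 20.5%), with a median of 3.93 normalised tags. RKO-only peaks stood at 8 of them, A549-only at 5 and H460-only at 6. Besides SRSF1 with 10.3, HNRNPU had peaks of 6.13 at 3 bp and 5.40 at 1278 bp from its start, SRSF6 had 5.15 and SF3B2 had 5.03. Of the 10 peaks at these 9 genes, 8 had an HRE core.

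Among 66 genes of stress response and autophagy, 6 had a peak (9.09%), in the order GABARAP (5.27), ATG5 (4.54) and WIPI2 (3.93) of the autophagy machinery, the mitochondrial chaperonin HSPE1 (3.31), the stress-induced gene GADD45B (3.07) and HSPD1 (2.70), the partner of HSPE1. RKO-only peaks stood at 3 of the 66, A549-only at 5 and H460-only at 11. Among 50 MYC, E-box and clock factor genes 4 had one (8.00%). HIF3A, a HIF alpha subunit that can oppose HIF1A, led these with 6.87 normalised tags at 2128 bp inside the gene. RKO-only peaks stood at 5 of the 50, A549-only at 3 and H460-only at 8. Among 69 DNA repair genes 5 had one (7.25%), namely ATR (5.03), RAD50 (4.42), PARP2 (4.17), BARD1 (4.05) and PMS1 (3.19), against 5 with an RKO-only, 3 with an A549-only and 7 with an H460-only peak. Of 42 genes of apoptosis and p53 targets 3 had one, with BIRC5, which encodes survivin, at 5.27 and APAF1 and BIRC3 at 3.43, against 3 for RKO, 8 for A549 and 3 for H460.

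The remaining lists lay between 1.16% and 6.94%. HCT116-only peaks stood at 5 of 72 replication-dependent histone genes, with up to 3.31 normalised tags, and at 22 of 514 genes named ZNF (4.28%), led by ZNF598 with 8.34. They also stood at 3 of 72 cell cycle and replication genes (CDK7, CDC45 and RRM2), 3 of 74 histone and DNA modifier genes (KMT5B, SIRT1 and KDM3B) and 2 of 48 proteasome genes (PSMA7 and PSMD14). For cytosolic ribosomal proteins the count was 3 of 85 (RPL12, RPL23A and RPL7L1), for small nucleolar RNA host genes 1 of 28 (SNHG31), and for respiratory chain subunits 1 of 86 (NDUFC2, with 6.38). A peak within 2500 bp of 2 starts was counted for both genes, as at H2BC9 and H3C7 or at SNHG31 and BARD1.

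At 38 symbols 2 HCT116-only peaks lay within 2500 bp of the start, often because neighbouring genes share them. By summed count the strongest were AC005606.1 (6.75 and 5.15 normalised tags), HNRNPU and its neighbour ENSG00000273175 (6.13 and 5.40), and MAZ, a zinc finger factor, with 2 unnamed neighbours (5.89 and 5.27). MIR200CHG, the host gene of microRNAs that maintain the epithelial state, had 5.03 and 4.78. RCC2, of chromosome segregation, had 5.27 and 3.43.

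The starts with an HCT116-only peak were not always free of HIF1A in the other lines. For 184 of the 990 peaks the same start was also bound, within 2500 bp, in another hypoxic line (18.6%, Wilson interval 16.3% to 21.1%), against 13.8% of all gene starts. The share was 4.51% where a peak within 1000 bp counted as shared, a setting that by its rule takes out peaks with such a neighbour. At 6-fold over the local region it was 8.61%, but that cut also took peaks from the other lines. The share over all gene starts was not recomputed there, so 13.8% is no baseline for it. In the main setting the start was bound in 1 other line for 137 of the 990 peaks, in 2 for 37 and in 3 for 10. RKO had such a peak at 100 starts, H460 at 74 and A549 at 67. At 30 starts HCT116 itself had a shared peak as well. A peak of another line lay within 200 bp of the edge of 51 peaks and within 1000 bp of 146 (14.7%), and the median gap was 28133 bp.

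Almost none of the sites was called in normoxia. In the HCT116 normoxia list, which has 287 peaks, 4 of the 990 peaks had a counterpart (0.404%, Wilson interval 0.157% to 1.03%), against 0.926% of all 3996 HCT116 hypoxia peaks and 15 of 864 shared near-start peaks (1.74%). The share of HCT116-only peaks was 1.24% with 14-fold over input required in all hypoxia lists, and 1.64% with 6-fold over the local region. Such cuts also change which peaks count as HCT116-only, so these are not shares of the 990. The other shares were not recomputed there. At CCDC85B the tag count was 8.39 in normoxia and 16.3 in hypoxia. At ENSG00000276216 it was 4.19 and 8.59, at the lncRNA gene CLASP1-AS1 4.77 and 6.87, and at ENSG00000288076 3.62 and 4.66. All 4 were higher in hypoxia, but the hypoxia counts belong to the list that selected the peaks, so this is a description. The windows differed too, with a peak size of 148 bp in hypoxia and 191 bp in normoxia. Of these 4 peaks only that of CCDC85B had an HRE core. The normoxia peaks of the 3 other lines overlapped 10 of the 990, against 3.30% of all HCT116 hypoxia peaks. RKO accounted for all 10, among them NRAS, MAZ, TRIM41 and MDC1, and A549 shared that of CLASP1-AS1. H460 overlapped 0 of 990, which allows a share of up to 0.303% when 3 counts are taken as the limit, or 0.387% as the Wilson upper bound. The same H460 list overlapped 2 of 1767 HCT116-only far peaks (0.113%) and 15 of 864 shared near-start peaks (1.74%).

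HCT116-only near-start peaks were unevenly spread over the chromosomes. There were 25.6 of them per 1000 gene starts on chromosomes 1 to 22 and X together. Chromosome 2 had 37.5 (99 peaks) and chromosome 1 had 32.4 (118 peaks). Chromosome X had 4.06 (5 peaks), chromosome 13 had 6.99 (6 peaks), chromosome 21 had 7.16 (4 peaks) and chromosome 18 had 9.93 (8 peaks). On X the RKO-only peaks were also few, with 9.74 per 1000 starts, while A549-only and H460-only peaks reached 32.5 and 28.4. The shared near-start peaks of HCT116 came to 9.74 on X, 17.5 on 13, 12.5 on 21 and 24.8 on 18. The part that chromosome copy number or mappability plays in these values was not tested.

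**Figure D5:**
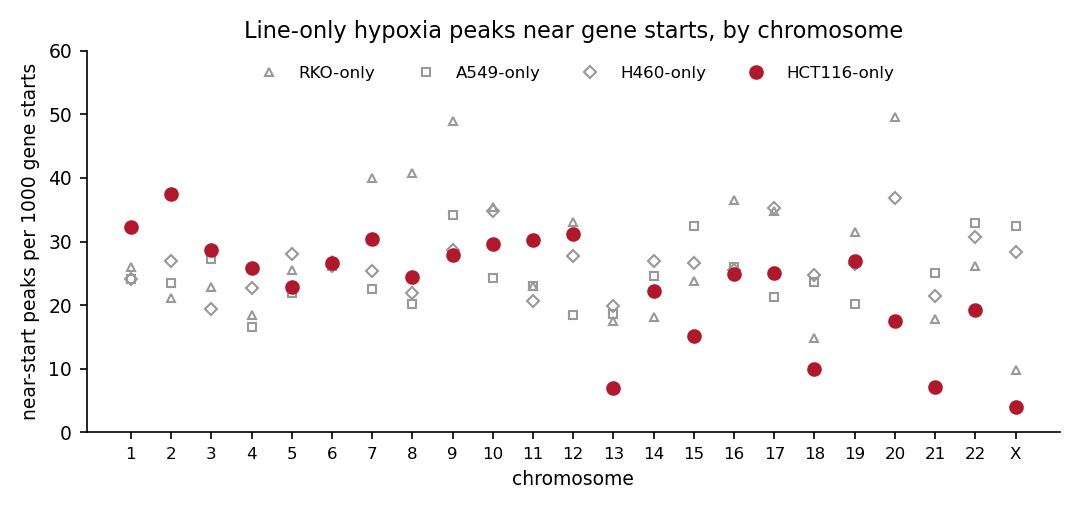
Line-only hypoxia peaks near gene starts per 1000 gene starts (vertical axis) on each chromosome (horizontal axis), with filled circles for HCT116 and open symbols for the other lines. HCT116 is the lowest line on X (4.06), 13 (6.99), 21 (7.16), 18 (9.93), 15 (15.1), 22 (19.3), 16 (24.9) and 9 (27.9). On chromosome 20 it ties with A549 for the lowest (17.5). It is the highest line on chromosomes 2 (37.5), 1 (32.4), 11 (30.2), 3 (28.7) and 4 (25.8).

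Few of the peaks share sequence. An identical stretch of 30 bases on either strand linked 22 of the 990 peaks (2.22%) to another HCT116 hypoxia peak, and 9 of them to another of the 990, in 9 pairs. Among these pairs was UCA1 with ZNF114, also on chromosome 19, and neither had an HRE core. LINC01237 (6.62 normalised tags), EPB41, ADAMTSL2 and PHKA1, on 4 different chromosomes, formed a second set. The part that reads mapping to several places play here was not tested.

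At the limits of the selection the peaks looked alike on both sides. The farthest peaks still counted as near were those of ENSG00000225806 (2496 bp, 2.94 normalised tags), PTHLH (2483 bp, 2.33) and TMEM88B (2478 bp, 2.82). Just outside lay those of HTR3E-AS1 (2502 bp, 2.82), LCN10 (2504 bp, 3.07) and IGF2BP3 (2507 bp, 2.58). The peaks of DNAJC4 (4.17), ENSG00000288837 (2.82) and TMEM14B-DT (5.64) missed a peak of another line by 2 bp. Those of TATDN2 (2.70), ENSG00000289159 (2.94) and HNRNPD (5.64) overlapped one by 2, 3 and 5 bp and so counted as shared.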

How the data were processed

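HIF1A ChIP-seq of HCT116, RKO, A549 and H460 cells was used as 8 peak lists deposited by the authors, 1 per line and condition. Per the submitters' notes and the study's methods, the authors aligned reads to GRCh37 (hg19) with Bowtie2 2.2.9, kept a mapping quality above 10, marked duplicates with Picard and called peaks with HOMER 4.3. Per the file headers, replicates 1 and 2 were merged, the merged tags were compared with the input of the line, and peaks had to pass a false discovery rate and an input p threshold of 0.001 each and be at least 3 times as dense as the 10000 bp around them. The deposited signal is the tag count of a peak scaled to 10 M tags. The deposited fold is the ratio to input tags, and the deposited local fold the ratio to the region around the peak. The deposited columns of p and of HOMER scores were not used. The description labels of the RKO and A549 inputs are exchanged against their titles, and groups followed the titles.

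Peaks of the 4 hypoxia lists were joined where they overlapped by 1 bp or more (19625 regions). Gene starts were taken from 38878 gene records (protein-coding or lncRNA) of GENCODE release 44 mapped to GRCh37, and 0 peaks ran past a chromosome end of that reference. Motifs were searched on both strands in 200 bp at the centre and in 200 bp windows 2000 bp to either side, with Python 3.11.15 and pysam 0.24.0. Medians, Wilson and Newcombe 95% intervals were computed over peaks and cover counting error only, since neighbouring peaks and PCR copies are not independent. The unit of replication was the line, and 6 differences were tested over 4 lines with an exact sign-flip permutation test and Benjamini-Hochberg adjustment. Scripts were tested on simulated peaks. The members and gene lists were chosen with earlier results of these data known, and the ranges of tag count and the 30-base search after the data were seen. Named genes were those nearest the 20 strongest peaks, up to 4 examples per list, peaks called in normoxia, genes with 2 peaks and peaks at the limits. The genes named beyond 4 per list were added after their values were seen. Of the 20 strongest peaks 1 is not reported here by name.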

Additional observations from a re-analysis of the deposited data

Results flagged for a closer look

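Over 39 measures of line-only near-start peaks, each compared over the 4 lines, 1 value stood apart by Dixon's test. RKO had 36.5 RKO-only peaks per 1000 gene starts on chromosome 16, whereas HCT116, A549 and H460 had 24.9, 26.0 and 25.5. Chance flags about 1 in 20 such groups. No value of the HCT116-only peaks stood apart by this test.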

How the results depend on the processing

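No paired analysis was possible because each peak list was made from both replicates together, and for the same reason no replicate could be left out. Of 127 values under other settings, 103 counted as the same, 19 moved beyond that and 5 changed sign. The same meant an unchanged direction for means over lines, and for single values a place within the interval or 1.5 times the count. The HCT116 differences in GC and distance have no interval. For them it meant a change of at most the SD over the lines, 4.4 points or 168 bp, a wide limit beside values of 0.5 points and 29.5 bp. The means over 4 lines kept their direction under every setting run, also without any 1 line. The number of peaks was 40.7% of 990 with a fold over input of at least 14 and 24.6% with at least 6 over the local region. Both cuts were applied to the hypoxia lists of all lines before joining, so peaks shared in the main setting could become HCT116-only. Of the 990 peaks themselves, 360 (36.4%) had a fold over input of at least 14. The number of peaks reached 1303 with every transcript start. It was 1136, 1084 or 1197 with the RKO, A549 or H460 list left out, a setting chosen after seeing the data. The cause of the changes below was not tested.

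In HCT116, the excess of the HRE core at the centre was 65.0 points at 6-fold over the local region, 41.7 with every transcript start and 42.2 in 100 bp. That of the control core was 35.4 at 14-fold over input, 36.0 with every transcript start and 26.5 in 100 bp. The difference from shared peaks was -7.79 points at 6-fold over the local region, -23.6 with every transcript start and -28.4 in 100 bp. The difference from far peaks was 13.3 points at 6-fold over the local region and 24.1 in 100 bp. The GC difference was -0.5 points at 14-fold and -1.0 with every transcript start. The distance difference was -3.0 bp with another line within 1000 bp counted as shared, -3.0 bp with a limit of 1000 bp and -19.5 bp at 6-fold over the local region. The share called in normoxia was 1.24% at 14-fold and 1.64% at 6-fold over the local region. The share with another line's peak at the start was 4.51% with another line within 1000 bp counted as shared, 23.2% with an overlap of 50% of the narrower peak required, 14.1% at 14-fold and 8.61% at 6-fold over the local region.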
